A study of Homo sapiens with 9 samples.

Results

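The vascular endothelial growth factor (VEGF) system was examined gene by gene in orthotopic tumors of TBP3743, a mouse anaplastic thyroid cancer cell line derived from the B6129SF1 background, whose cells carry Braf V600E expressed in the thyroid and lack Trp53. The genes were chosen by name and comprise 4 ligands (Vegfa, Vegfb, Vegfc and Pgf), 3 receptor tyrosine kinases (Flt1, Kdr and Flt4) and 2 neuropilin co-receptors (Nrp1 and Nrp2). Of these 9 genes, 8 had a row among the 17369 genes of the expression table, and Nrp1 was not analysed here. All 8 passed the filter on low values and were tested together with the other genes, 10263 in all. The 9 tumors formed 3 groups of 3, named as in the sample descriptions. SFOG tumors grew from the original cells in B6129SF1 hosts, SFSC tumors from adapted cells in B6129SF1 hosts, and B6SC tumors from adapted cells in C57BL/6 hosts. The Braf and Trp53 lesions are common to all 3 groups. Adapted cells had gone through passage round 3 under the skin of C57BL/6 mice, with the largest tumors carried on, so they descend from few tumors. Hosts were female and 6 weeks old, 100000 cells went into the left thyroid lobe, and tumors were taken on day 14. Whole tumor tissue was sequenced, so each library also held RNA of host vessels, leukocytes and stroma.

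VEGF ligands are secreted dimers that bind receptor tyrosine kinases on endothelial cells. Vegfa acts mainly through Kdr to drive blood vessel growth, Flt1 binds Vegfa, Vegfb and Pgf and can act as a trap for Vegfa, and Vegfc acts through Flt4, chiefly on lymphatic vessels, and after processing also through Kdr. Neuropilins bind both VEGF ligands and class 3 semaphorins. The thyroid gland is densely supplied with capillaries.

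The labelled tissue was first checked against marker genes. The keratin genes Krt8 and Krt18 averaged 315 and 215 FPKM (fragments per kilobase of transcript, scaled to library size) over the 9 tumors, whereas Epcam, a surface protein of epithelial cells, was 1.13 ± 0.625 FPKM in the SFOG group (SD, n = 3). Nkx2-1, a thyroid transcription factor, was 33.1 ± 7.47 FPKM there (SD, n = 3), and the sodium-iodide symporter gene Slc5a5 averaged 0.0529 FPKM. Tg, the gene for thyroglobulin, differed widely between tumors of the same group. It was 30.2 FPKM in SFOG2, 12.2 in SFOG3, 31.0 in B6SC1 and 11.3 in B6SC2. Tg was far lower elsewhere, at 0.0153 FPKM in SFOG1, 0.358 in B6SC3 and a mean of 0.428 in SFSC. The cause was not tested. Skeletal muscle transcripts set 2 tumors apart. The 10 muscle genes listed summed to 35101 FPKM in SFSC3 and 5488 FPKM in B6SC1, against 3.72 to 689.5 FPKM in the other 7 tumors.

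Vegfc was the 1 VEGF gene called at an adjusted p under 0.05. It was upregulated in both groups grown from adapted cells, with a ratio of mean FPKM of 2.99 in SFSC and 3.96 in B6SC, whereas none of the other 7 genes passed the test in any pair of groups. Vegfc was 1.80, 1.24 and 1.74 FPKM in the SFOG tumors, 5.65, 5.29 and 3.37 in the SFSC tumors and 5.97, 7.37 and 5.62 in the B6SC tumors. Every adapted tumor lay above every SFOG tumor, and the lowest adapted tumor was the muscle-rich SFSC3. The group means were 1.60 ± 0.306, 4.77 ± 1.23 and 6.32 ± 0.926 FPKM for SFOG, SFSC and B6SC (SD, n = 3 each). Fold changes are given on the log2(FPKM + 1) scale, where the change of genes with low FPKM comes out too small. Against SFOG, the log2 fold change of Vegfc was 1.14 in SFSC (SE 0.19, 95% interval 0.71 to 1.56, limma adjusted p = 0.0117) and 1.495 in B6SC (SE 0.19, 95% interval 1.07 to 1.92, limma adjusted p = 0.00394). The SFOG tumors are shared by both contrasts. In bulk tumors, fewer cells of a type and less RNA per cell cannot be told apart.

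**Figure D1:**
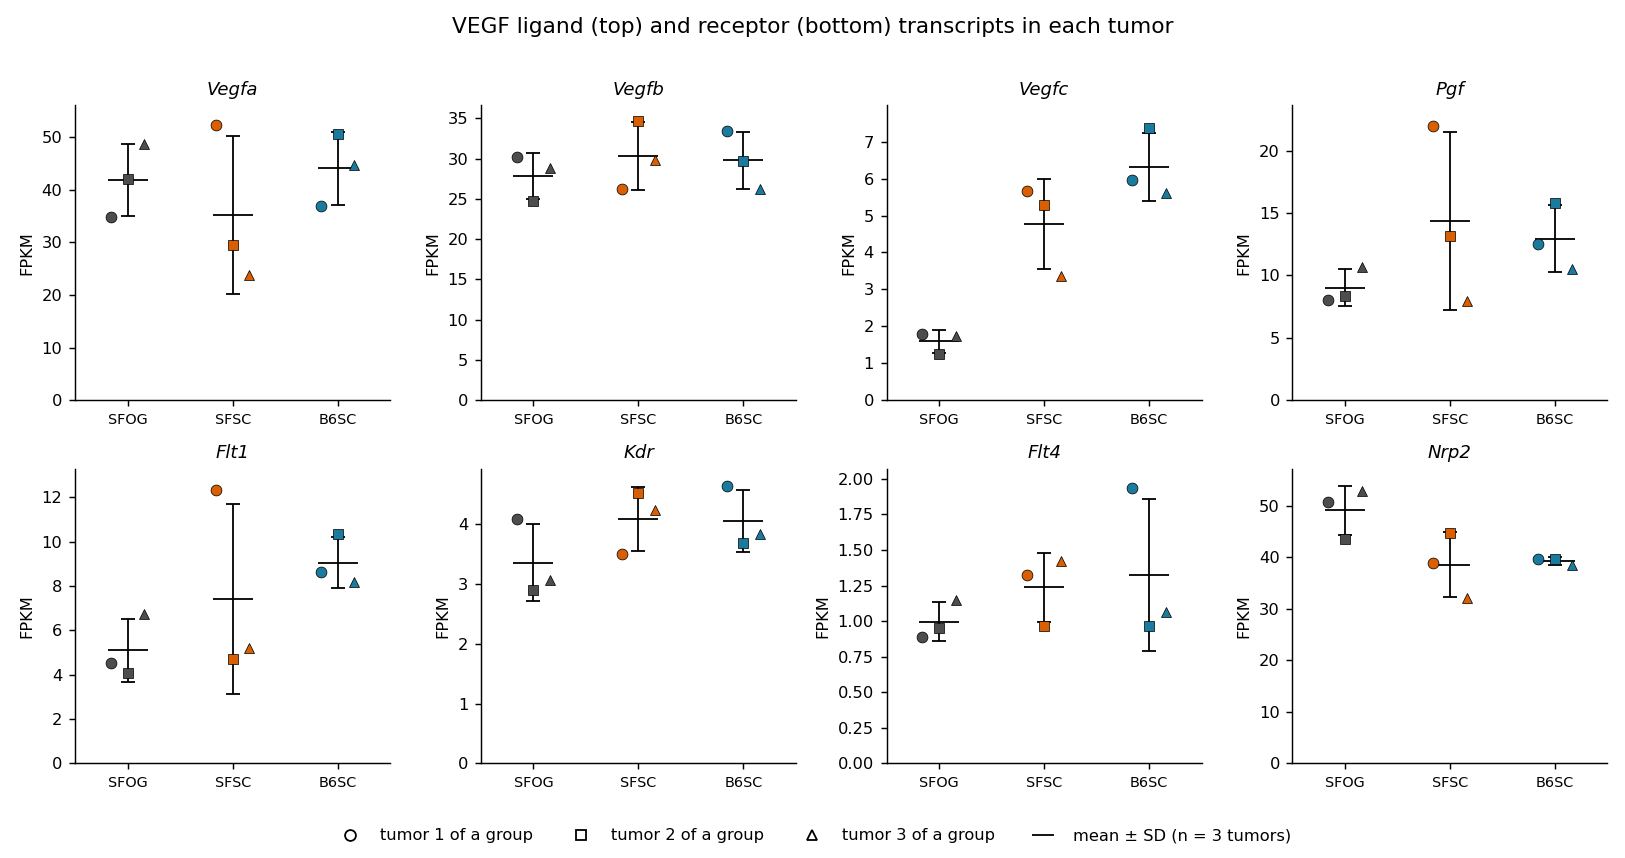
FPKM of the 4 VEGF ligand genes (top) and 4 receptor genes (bottom) in each of the 9 tumors, with group means and SD (n = 3). Vegfc was 1.24 to 1.80 FPKM in SFOG tumors and 3.37 to 7.37 in adapted tumors, while the Vegfa and Vegfb panels overlap between groups.

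At an adjusted p under 0.05, 1 of 8 VEGF genes was called higher in SFSC, beside 4.37% of all genes tested, and 1 of 8 in B6SC, beside 3.99%. None of the 8 was called lower, against 3.92% and 2.77% of all genes. The same shares are the background for the calls in each gene list below. A lack of overlap like that of Vegfc, with the adapted tumors higher, was seen for 13.6% of all genes in SFSC and 14.9% in B6SC. The median log2 fold change of the 8 genes was 0.20 in SFSC and 0.21 in B6SC, beside -0.029 and -0.025 for all genes tested. The Vegfc calls were kept under each of the 20 alternative settings run, with limma adjusted p between 0.00700 and 0.0427 in SFSC and between 0.00255 and 0.0190 in B6SC. Without both muscle-rich tumors, a setting added after the data were seen, the fold changes were 1.32 and 1.53 (limma adjusted p = 0.0107 and 0.00619).

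Hosts that received the same adapted cells were compared next. Vegfc had a log2 fold change of 0.36 in B6SC against SFSC (95% interval -0.066 to 0.78, limma adjusted p = 0.823), which did not pass the test, and SFSC1 overlapped the B6SC tumors. None of the 8 VEGF genes passed in this contrast or had an unadjusted p under 0.05. Of all genes tested, 0.0292% passed and 6.27% had an unadjusted limma p under 0.05.

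**Figure D2:**
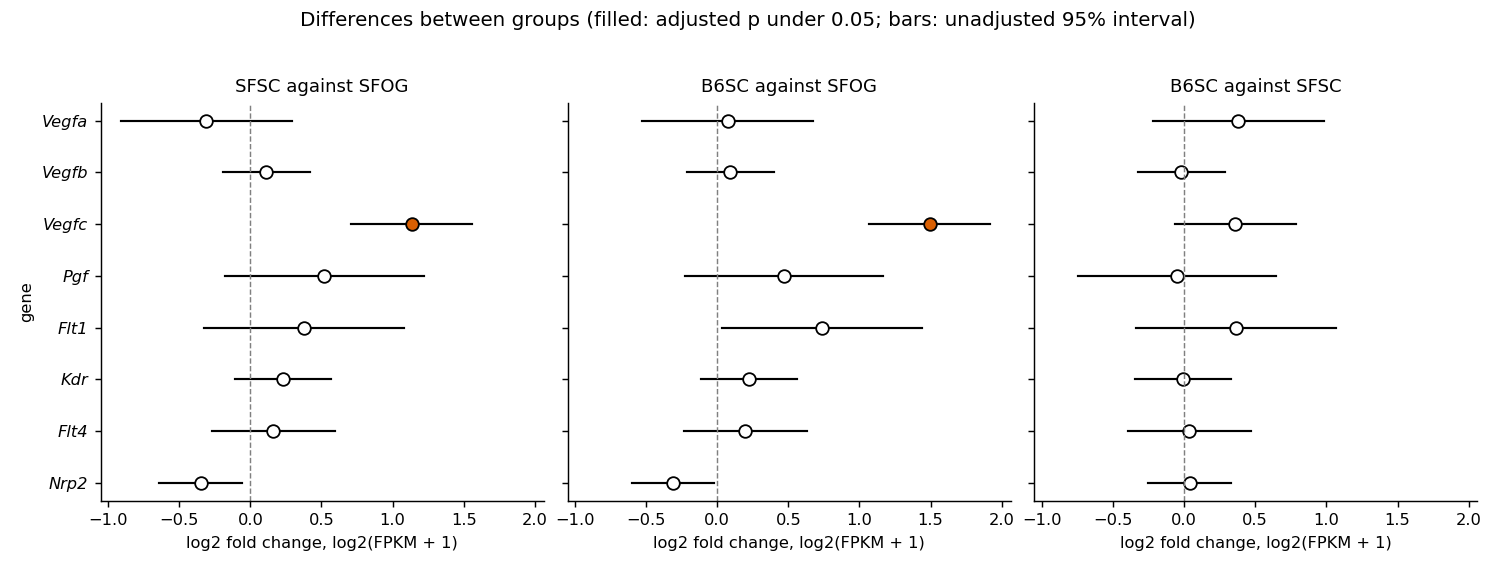
Log2 fold changes of the 8 genes on the log2(FPKM + 1) scale for the 3 pairs of groups, with unadjusted 95% intervals from limma. Filled points mark an adjusted p under 0.05, which Vegfc alone reached, at 1.14 and 1.495 against SFOG.

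Vegfa, the main growth factor for blood vessels, was 34.9, 42.2 and 48.6 FPKM in the SFOG tumors, 52.3, 29.6 and 23.8 in the SFSC tumors and 36.9, 50.6 and 44.7 in the B6SC tumors. The SFSC group held both the highest and the lowest of the 9 tumors. The log2 fold change against SFOG was -0.31 in SFSC (95% interval -0.91 to 0.29, limma adjusted p = 0.484) and 0.072 in B6SC (95% interval -0.53 to 0.67, limma adjusted p = 0.898). With each tumor left out, the SFSC value ran from -0.63 to -0.076 (limma adjusted p from 0.0833 to 0.881). Vegfb, a ligand of Flt1, ranged from 24.7 to 34.7 FPKM over the 9 tumors, and its fold changes against SFOG had intervals of -0.19 to 0.42 in SFSC and -0.21 to 0.40 in B6SC.

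Pgf, placental growth factor, was 8.03, 8.32 and 10.7 FPKM in the SFOG tumors, 21.98, 13.2 and 7.93 in the SFSC tumors and 12.49, 15.8 and 10.5 in the B6SC tumors. Its mean was higher in both adapted groups, but both overlapped SFOG. The log2 fold changes of 0.52 and 0.47 did not pass the test (limma adjusted p = 0.312 and 0.392), and that of SFSC was 0.18 without SFSC1.

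The ligand mixture was compared within each tumor, where any scaling of the whole library cancels out. Of the summed FPKM of the 4 ligands, Vegfc made up 2.41, 1.63 and 1.93% in the SFOG tumors, 5.32, 6.39 and 5.18% in the SFSC tumors and 6.72, 7.12 and 6.45% in the B6SC tumors. No pair of groups overlapped (exact two-sided permutation test, p = 0.1 for each pair, the smallest that 3 against 3 allow). The highest SFSC tumor lay just under the lowest B6SC tumor. The Pgf share was 11.2 ± 0.643% in SFOG, 16.3 ± 4.26% in SFSC and 13.8 ± 1.61% in B6SC (SD, n = 3 each), and each adapted tumor exceeded each SFOG tumor, by as little as 12.1% against 11.9%. Vegfa and Vegfb made up most of the mixture in every tumor. The ligand sum was 80.4 ± 8.23, 84.7 ± 20.7 and 93.1 ± 9.002 FPKM in SFOG, SFSC and B6SC (SD, n = 3 each), with overlapping tumors.

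**Figure D3:**
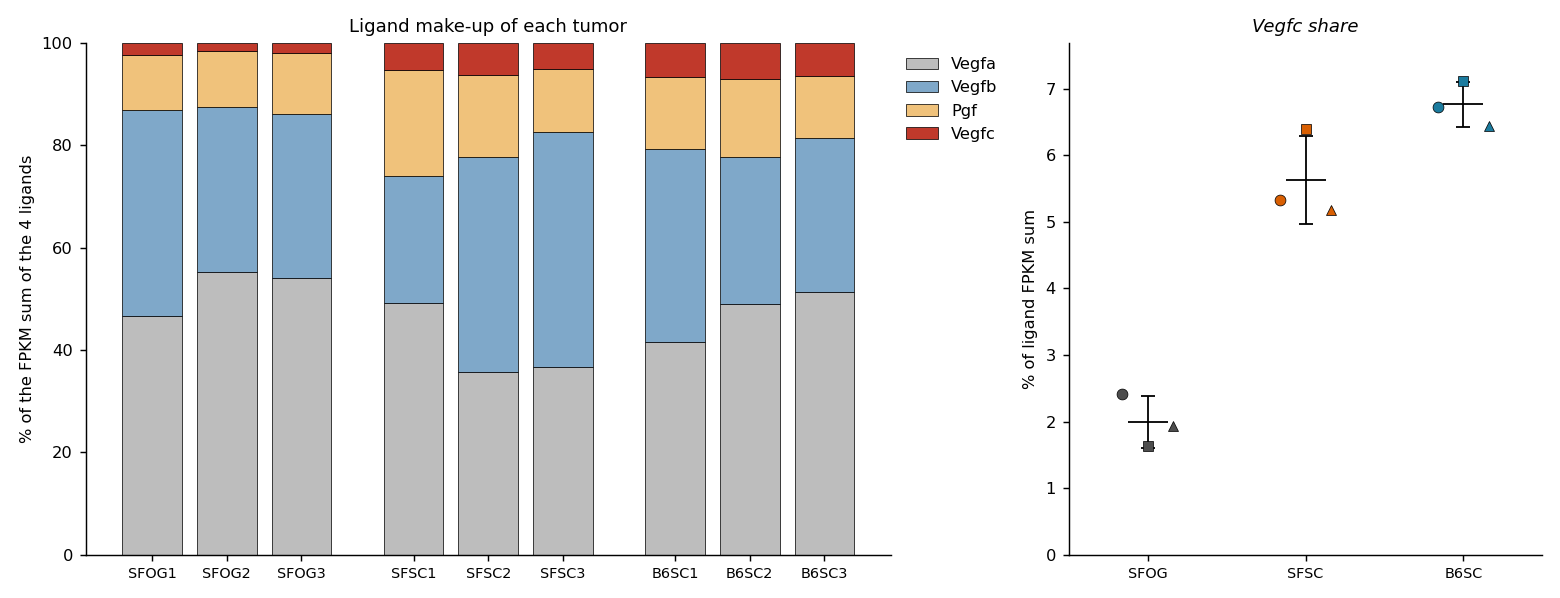
Share of each ligand in the summed FPKM of Vegfa, Vegfb, Pgf and Vegfc in each tumor (left, stacked to 100%), and the Vegfc share alone with group means and SD (right, n = 3). The Vegfc share was at most 2.41% in SFOG tumors and at least 5.18% in adapted tumors.

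Among the receptors, Flt1 was 4.54, 4.06 and 6.73 FPKM in the SFOG tumors, 12.3, 4.70 and 5.21 in the SFSC tumors and 8.61, 10.4 and 8.20 in the B6SC tumors. B6SC and SFOG did not overlap, and SFSC1 stood far above the rest of its group. In B6SC the log2 fold change was 0.74 (SE 0.31, 95% interval 0.034 to 1.44) with a limma adjusted p of 0.187, and without SFSC1 it was 0.74 with a limma adjusted p of 0.0442. In SFSC the fold change of 0.37 (limma adjusted p = 0.469) became -0.013 without SFSC1.

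Kdr, the main signalling receptor for Vegfa, was 3.35 ± 0.645, 4.09 ± 0.532 and 4.06 ± 0.516 FPKM in SFOG, SFSC and B6SC (SD, n = 3 each). The tumors overlapped, and the fold changes of 0.23 and 0.22 did not pass (limma adjusted p = 0.357 and 0.406). Flt4, the receptor for Vegfc, was the weakest of the 8 transcripts in each group and reached 1 FPKM in 5 of the 9 tumors. It was 0.886, 0.948 and 1.15 FPKM in the SFOG tumors, 1.32, 0.965 and 1.42 in the SFSC tumors and 1.94, 0.967 and 1.07 in the B6SC tumors. The muscle-rich tumors SFSC3 and B6SC1 were the highest of their groups. In B6SC the log2 fold change was 0.20 (limma adjusted p = 0.570), and 0.018 without the muscle-rich tumors.

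The ratio of Vegfc to Flt4 was 1.62 ± 0.374 in SFOG, 4.04 ± 1.57 in SFSC and 5.32 ± 2.27 in B6SC (SD, n = 3 each). Its lowest value in an adapted tumor, 2.37, lay above its highest in an SFOG tumor, 2.04 (exact two-sided permutation test, p = 0.1 for SFSC and for B6SC). The ratio of Vegfa to Kdr overlapped between all groups, with means of 13.0, 9.03 and 11.1.

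Nrp2, a co-receptor for Vegfc and class 3 semaphorins, was far more abundant than the receptor kinases. It was 50.8, 43.7 and 52.9 FPKM in the SFOG tumors, 38.8, 44.7 and 32.1 in the SFSC tumors and 39.6, 39.8 and 38.4 in the B6SC tumors. The 3 B6SC tumors were close together and lay below SFOG, as 17.9% of all genes tested did, while SFSC2 overlapped SFOG. The log2 fold changes of -0.35 in SFSC (95% interval -0.64 to -0.060, limma adjusted p = 0.125) and -0.31 in B6SC (95% interval -0.60 to -0.021, limma adjusted p = 0.179) did not pass.

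FPKM is scaled by length, so the levels of the 8 transcripts can be ordered. In SFOG the order was Nrp2, Vegfa, Vegfb, Pgf, Flt1, Kdr, Vegfc and Flt4, with overlap between Nrp2 and Vegfa and between Flt1 and Kdr. Vegfc lay below Kdr in SFOG, with a maximum of 1.80 against a minimum of 2.90 FPKM. It lay above Kdr in B6SC, with a minimum of 5.62 against a maximum of 4.65 FPKM, and there Vegfa and Nrp2 were the only neighbours that overlapped. In SFSC the neighbours Nrp2 and Vegfa, Vegfa and Vegfb, Pgf and Flt1, Flt1 and Vegfc, and Vegfc and Kdr overlapped, while Pgf lay above Vegfc, with a minimum of 7.93 against a maximum of 5.65 FPKM.

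The receptor kinases are known as endothelial genes. They were therefore set against 15 blood endothelial markers of the same tumor, all of which passed the filter. Nrp2 was set against them too, although its mean of 42.3 FPKM exceeded that of the most abundant marker, 30.6 FPKM. Its cell source was not tested. The summed level of the markers was 131, 139 and 169 FPKM in SFOG, 198, 148 and 237 in SFSC and 209, 188 and 175 in B6SC. Their mean on the log2(FPKM + 1) scale was 3.09 ± 0.152, 3.42 ± 0.331 and 3.37 ± 0.153 in the same order (SD, n = 3 each), and both adapted groups overlapped SFOG. The fold change was above 0 for 14 of 15 markers in SFSC and 14 in B6SC. Markers of 1 cell type can shift together, so these counts are not of independent genes. The medians were 0.34 and 0.26, beside -0.029 and -0.025 for all genes tested. Egfl7, a protein secreted by endothelial cells, was the 1 marker that passed, with 0.59 in SFSC and 0.59 in B6SC (limma adjusted p = 0.0406 and 0.0471), and each call was kept in 1 of 9 fits that left out a tumor. Plvap, a protein of fenestrated endothelium and the most abundant marker, had fold changes of 0.63 and 0.69 that did not pass (limma adjusted p = 0.0931 and 0.0772).

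Relative to these markers, Kdr was -0.98 ± 0.314, -1.07 ± 0.419 and -1.03 ± 0.0676 on the log2 scale in SFOG, SFSC and B6SC (SD, n = 3 each), and the groups overlapped. Flt1 was -0.50 ± 0.190 in SFOG and -0.045 ± 0.225 in B6SC (SD, n = 3 each), with the highest SFOG tumor at -0.31 just under the lowest B6SC tumor at -0.27 (exact two-sided permutation test, p = 0.1). In SFSC it spread from -1.08 to 0.26. Nrp2 differed by -0.59 between B6SC and SFOG, without overlap (exact two-sided permutation test, p = 0.1). In that pair, the log2 fold change of Nrp2 itself was -0.31, and the marker mean was 0.28 higher in B6SC. Flt4 differed from SFOG by -0.16 in SFSC and -0.080 in B6SC, with overlapping tumors.

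**Figure D4:**
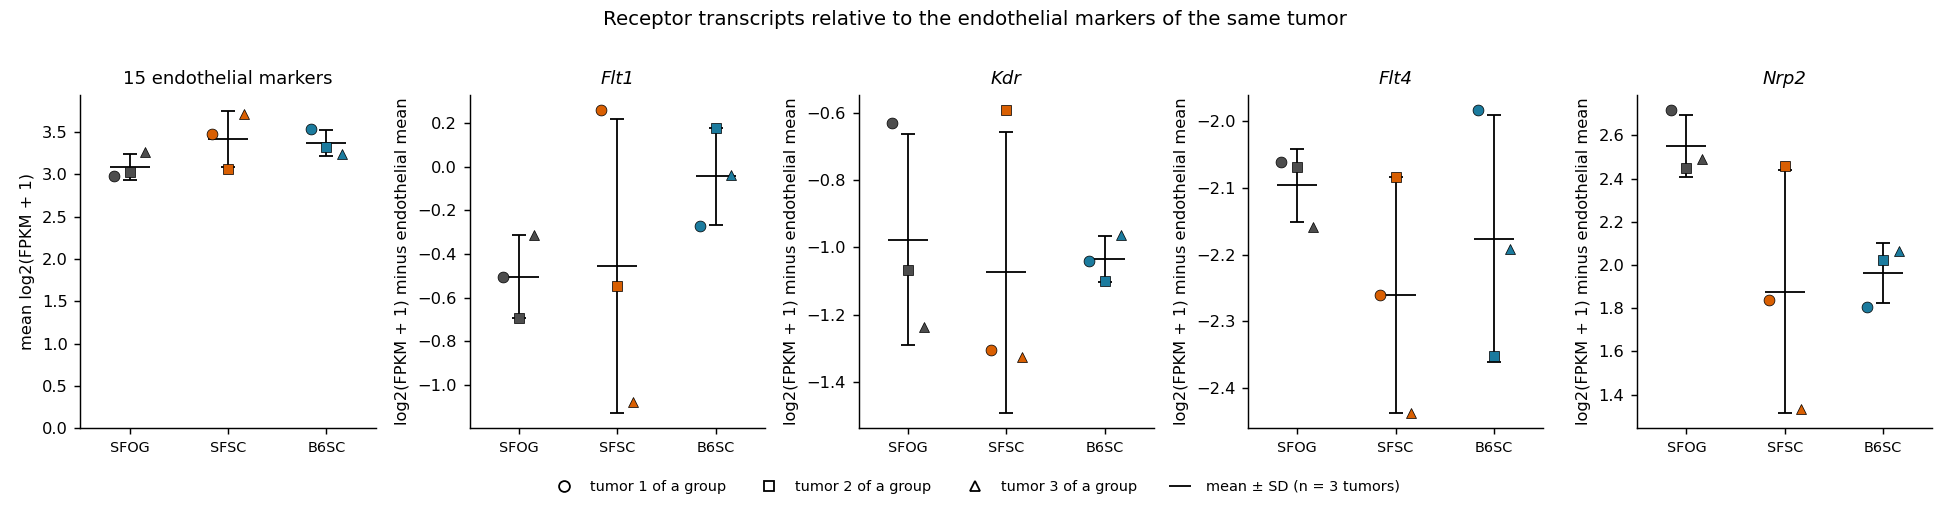
Mean log2(FPKM + 1) of 15 blood endothelial markers in each tumor (left), and log2(FPKM + 1) of each receptor minus that mean, with group means and SD (n = 3). Kdr and Flt4 overlap between groups, while Nrp2 was 1.81 to 2.06 in B6SC tumors and 2.45 to 2.72 in SFOG tumors.

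Markers of lymphatic endothelium, on which Vegfc chiefly acts, differed widely in level. Prox1, the transcription factor that defines it, was at most 0.204 FPKM in any tumor and was listed at 0 in SFOG2 and B6SC2. Of 6 lymphatic markers, 3 passed the filter (Lyve1, Pdpn and Ccl21a), and none of these passed the test in any pair of groups. Lyve1, which macrophages also express, was 20.0 ± 14.1, 10.5 ± 8.02 and 6.85 ± 2.89 FPKM in SFOG, SFSC and B6SC (SD, n = 3 each). Ccl21a, a chemokine of lymphatic endothelium, was 10.5 FPKM in SFSC3 and 17.6 FPKM in B6SC1, the muscle-rich tumors, and at most 1.79 in the others. Mmrn1 reached 1.55 and 1.93 FPKM in the same tumors and at most 0.151 in the others. The summed level of the list was 26.5, 49.6 and 49.0 FPKM in SFOG, 30.4, 8.69 and 40.7 in SFSC and 66.9, 35.6 and 55.7 in B6SC, and its most abundant gene was Pdpn, a glycoprotein that fibroblasts and tumor cells also make. Pdpn was 20.9 ± 10.5, 11.6 ± 5.68 and 38.5 ± 9.81 FPKM in SFOG, SFSC and B6SC (SD, n = 3 each). In B6SC its log2 fold change was 0.92 against SFOG (limma adjusted p = 0.200). Against SFSC it was 1.73, without overlap (limma adjusted p = 0.490).

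Of the genes that process Vegfc, 3 could be tested, and none of these rose with it. Vegfc is made as a precursor that proprotein convertases such as Furin, Pcsk5 and Pcsk7 cut, and Ccbe1 helps the protease Adamts3 to complete its maturation. Ccbe1 was 10.9, 4.45 and 13.4 FPKM in the SFOG tumors, 1.24, 2.96 and 2.01 in the SFSC tumors and 5.46, 1.79 and 2.52 in the B6SC tumors. It was downregulated in SFSC (log2 fold change -1.71, SE 0.42, limma adjusted p = 0.0431), where each tumor lay below each SFOG tumor. That call was kept in 3 of 9 fits that left out a tumor, with limma adjusted p from 0.0246 to 0.132. In B6SC the fold change was -1.30 (limma adjusted p = 0.103), and B6SC1 overlapped SFOG. Furin was 62.1 ± 12.4, 50.0 ± 12.6 and 58.3 ± 5.56 FPKM in SFOG, SFSC and B6SC (SD, n = 3 each), with overlapping tumors. Adamts3 and Pcsk5 stayed under the filter and were not tested. Adamts3 averaged 0.0425, 0.116 and 0.0645 FPKM in SFOG, SFSC and B6SC. Pcsk5 was 0.181, 0.0626 and 0.188 FPKM in the SFOG tumors, 0.0777, 0.248 and 4.12 in the SFSC tumors and 0.447, 0.0236 and 0.0503 in the B6SC tumors, with the highest value in the muscle-rich SFSC3. Of the 3 genes of this list tested, 1 was lower in SFSC, beside 3.92% of all genes tested, and 0 passed in B6SC.

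Esm1, the proteoglycan endocan, which VEGF induces in endothelial tip cells, was upregulated in both adapted groups. It was 8.77, 5.20 and 7.24 FPKM in the SFOG tumors, 28.3, 13.7 and 21.0 in the SFSC tumors and 19.4, 50.6 and 35.3 in the B6SC tumors. Every adapted tumor lay above every SFOG tumor. The log2 fold change was 1.41 in SFSC (SE 0.36, limma adjusted p = 0.0468), kept in 3 of 9 fits that left out a tumor, and 2.08 in B6SC (limma adjusted p = 0.0129), kept in 7 of 9. Of 10 VEGF-induced genes tested, Esm1 was the 1 that passed in either group, beside 4.37% and 3.99% of all genes called higher. The medians of the list were -0.13 and -0.22. Dll4, the Notch ligand of tip cells, had fold changes of 0.038 and 0.37 (limma adjusted p = 0.946 and 0.466). Rcan1, an inhibitor of calcineurin that many stimuli induce, had -0.90 and -1.73 (limma adjusted p = 0.230 and 0.0521).

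Of 21 genes of VEGF receptor signalling, all tested, 1 was higher in SFSC, and 1 was higher and 1 lower in B6SC. The shares over all genes tested were 4.37% higher in SFSC, and 3.99% higher and 2.77% lower in B6SC. Mapkapk3, a kinase downstream of p38, had log2 fold changes of 0.66 and 0.75 (limma adjusted p = 0.0430 and 0.0316), calls kept in 1 and 4 of 9 fits that left out a tumor. The adaptor gene Nck1 was downregulated in B6SC (-0.49, limma adjusted p = 0.00817), at 16.3 ± 0.695 FPKM beside 23.3 ± 0.828 in SFOG (SD, n = 3 each), kept in 8 of 9. Plcg1, the phospholipase that Kdr activates, had 0.30 and 0.11 (limma adjusted p = 0.329 and 0.751). The medians of the list were 0.088 and 0.00. Of the angiopoietin system, Angpt2, Tek and Tie1 were tested and none passed in any pair of groups.

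Semaphorins and plexins share the neuropilins with VEGF ligands. Sema3b, a class 3 semaphorin, was 0.803, 0.398 and 0.375 FPKM in the SFOG tumors, 2.32, 3.37 and 3.42 in the SFSC tumors and 2.43, 4.26 and 2.55 in the B6SC tumors. Each adapted tumor lay above each SFOG tumor. The gene passed the filter on low values through the adapted tumors alone, so its fold changes of 1.40 in SFSC and 1.40 in B6SC are given from that fit without a p. With no filter, where every gene with a value above 0 in any tumor was tested, they were 1.40 and 1.40 (limma adjusted p = 0.01645 and 0.01406). Plxnd1, a plexin of endothelial cells, was upregulated in SFSC (0.81, limma adjusted p = 0.0136), at 29.7 ± 4.96 FPKM beside 16.5 ± 2.28 in SFOG (SD, n = 3 each). In B6SC it was 21.2 ± 0.375 FPKM (SD, n = 3), above each SFOG and below each SFSC tumor, and its fold change of 0.35 did not pass (limma adjusted p = 0.168). Plxna2 was downregulated in SFSC (-0.57, limma adjusted p = 0.0445), kept in 1 of 9 fits that left out a tumor. Besides Sema3b, Plxnd1 and Plxna2 were the genes of the list that passed in SFSC, and none passed in B6SC. Among all genes tested, 4.37% were called higher and 3.92% lower in SFSC.

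Of 8 angiogenesis inhibitors tested, Serpinf1, which encodes pigment epithelium-derived factor, was the 1 called, higher in both adapted groups. It was 128, 249 and 145 FPKM in the SFOG tumors, 506, 313 and 289 in the SFSC tumors and 404, 443 and 426 in the B6SC tumors. SFOG did not overlap the adapted tumors. The log2 fold changes were 1.09 and 1.34 (limma adjusted p = 0.0442 and 0.0249), kept in 1 and 4 of 9 fits that left out a tumor. Thbs2, a thrombospondin that restrains vessel growth, had -0.98 and -0.93 and did not pass (limma adjusted p = 0.123 and 0.155). The fold change was above 0 for 3 of 8 in SFSC and 4 of 8 in B6SC, with medians of -0.14 and -0.011. Among all genes tested, 4.37% and 3.99% were called higher.

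**Figure D5:**
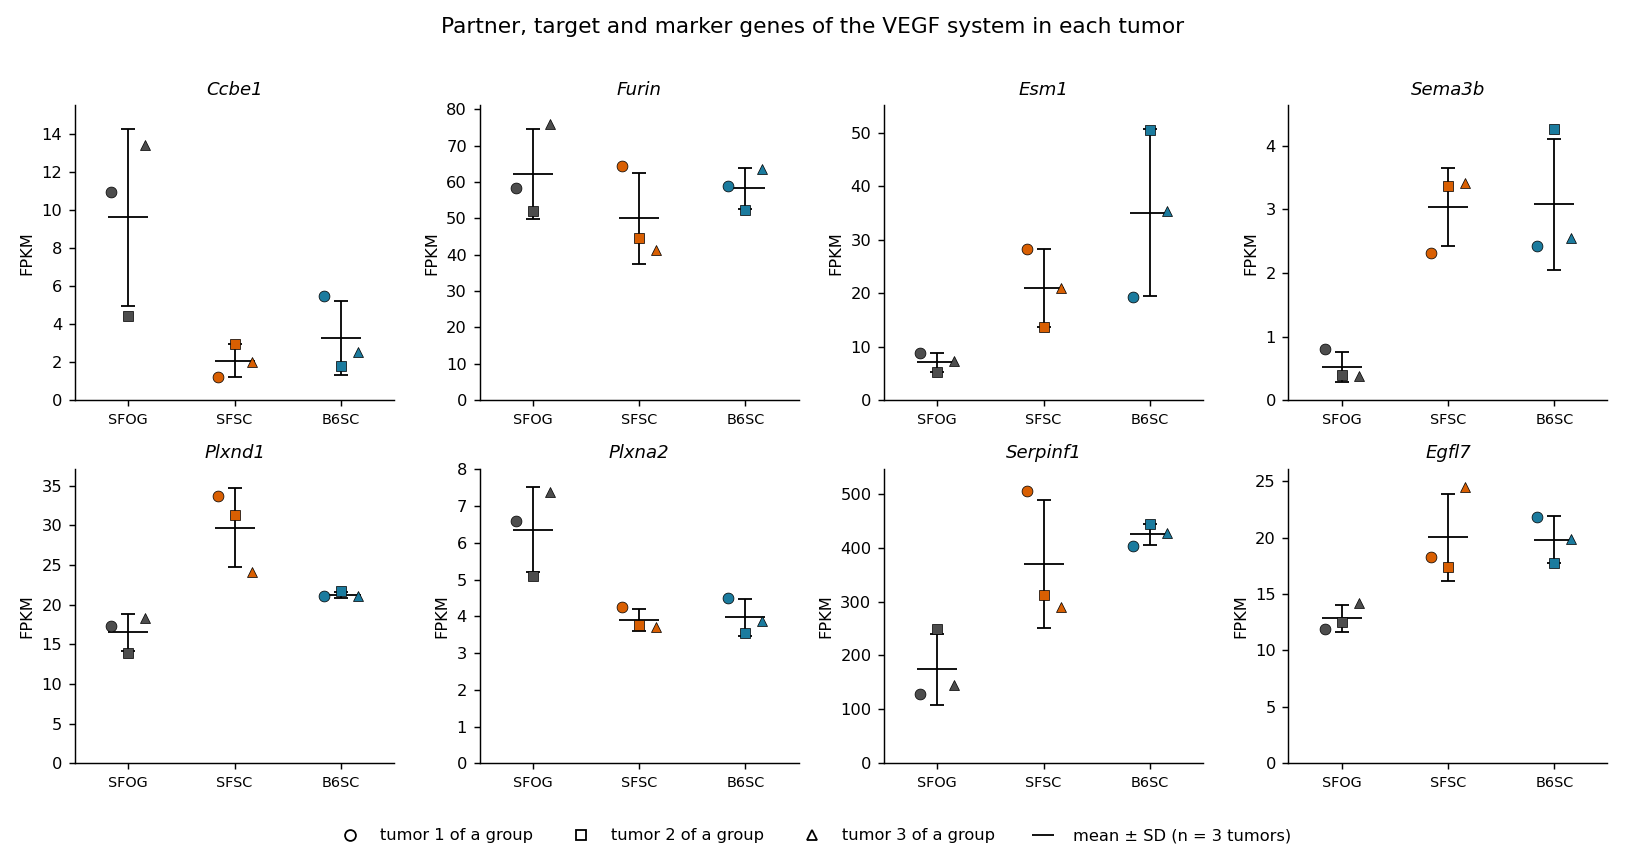
FPKM of Ccbe1 and Furin (Vegfc maturation), Esm1 (VEGF-induced), Sema3b, Plxnd1 and Plxna2 (semaphorin and plexins), Serpinf1 (angiogenesis inhibitor) and Egfl7 (endothelial) in each tumor, with group means and SD (n = 3). Ccbe1 was at most 2.96 FPKM in SFSC tumors, while Esm1, Sema3b and Serpinf1 were higher in every adapted tumor than in every SFOG tumor.

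Oxygen-regulated genes were listed because Vegfa is a classical target of hypoxia-inducible factors. Of 14 genes of the hypoxia response tested, Egln3, a prolyl hydroxylase, was higher in SFSC (0.86, limma adjusted p = 0.0425), kept in 2 of 9 fits that left out a tumor, and 0 passed in B6SC. Among all genes tested, 4.37% were called higher in SFSC. The medians of the list were -0.14 and 0.092. Slc2a1, a glucose transporter, had -0.43 and -0.076 (limma adjusted p = 0.315 and 0.889). None of 6 subunits and regulators of hypoxia-inducible factors passed in any pair of groups.

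Some markers of other cells also differed between adapted and SFOG tumors. Within SFSC and B6SC, the tumor with the highest Vegfc (SFSC1 and B6SC2) had the lowest leukocyte and T cell sums of its group. As background, 4.37% and 3.99% of all genes tested were called higher in SFSC and B6SC, and 3.92% and 2.77% lower. Of 5 general leukocyte genes, Cd52 passed in SFSC (1.12, limma adjusted p = 0.0491), and the sum of the 5, with Cd52 the most abundant, was 277 to 307 FPKM in SFOG tumors and 335 to 660.3 FPKM in adapted tumors. Of 6 T cell genes, Cd3g passed in both adapted groups (1.499 and 1.95, limma adjusted p = 0.0393 and 0.0170) and Cd2 in B6SC. Their sum was 4.93, 3.60 and 5.39 FPKM in SFOG, 6.30, 26.9 and 24.9 in SFSC and 27.1, 18.5 and 23.6 in B6SC. SFSC1 was the lowest adapted tumor by this sum. None of 8 macrophage genes tested passed. Their sum, with C1qa the most abundant, was 1232, 1799 and 1650 FPKM in SFOG, 2225, 1839 and 2322 in SFSC and 2474, 1070 and 2263 in B6SC. Each SFSC tumor lay above each SFOG tumor, while B6SC2 lay below all of them. The fold change was above 0 for 6 of 8 in SFSC and 6 of 8 in B6SC, with medians of 0.55 and 0.17.

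Of 7 fibroblast genes, Fap was higher (1.21 and 0.89, limma adjusted p = 0.0161 and 0.0479), while Col3a1, the most abundant, had -0.057 and -0.30. Col1a1 had 1.01 and 0.78, without overlap with SFOG, and did not pass (limma adjusted p = 0.0698 and 0.146). The fold change was above 0 for 4 of 7 in SFSC and 4 of 7 in B6SC, with medians of 0.33 and 0.46. Of 7 pericyte genes, Cspg4 was lower (-1.01 and -1.14, limma adjusted p = 0.0354 and 0.0262), whereas the fold change was above 0 for 5 of 7 in SFSC and 5 of 7 in B6SC, with medians of 0.26 and 0.11. Of 6 epithelial genes, Krt8 was lower (-1.32 and -1.12, limma adjusted p = 0.0189 and 0.0346), with a fold change above 0 for 0 of 6 in SFSC and 3 of 6 in B6SC and medians of -0.39 and -0.070. Of the 9 fits that left out a tumor, the SFSC calls were kept in 2 for Cd52, 1 for Cd3g, 8 for Fap, 3 for Cspg4 and 7 for Krt8, and the B6SC calls in 4 for Cd3g, 2 for Cd2, 2 for Fap, 5 for Cspg4 and 4 for Krt8. In SFOG the lowest values of Fap, Cd3g and Cd2 (0.617, 0.967 and 0.877 FPKM) lay under the filter of 1 FPKM. These genes met the filter only with adapted tumors, so their p values call for caution. None of the 10 muscle genes or the 2 tested thyroid genes passed in any pair of groups. The part of these cell types in the Vegfc result was not tested.

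For each VEGF gene, the genes with the most similar pattern were found by the Pearson correlation of log2(FPKM + 1) over the 9 tumors. This is a description, since the tumors share groups and libraries. For Vegfc they were Sardh, a mitochondrial dehydrogenase (r = 0.983), Cercam, a cell adhesion gene (r = 0.970), and Dchs1, a protocadherin (r = 0.968). Sardh was 5.93 ± 0.502, 12.7 ± 3.22 and 16.1 ± 1.72 FPKM in SFOG, SFSC and B6SC (SD, n = 3 each). Vegfa was most like the fibronectin gene Fn1 (r = 0.957) and Sema3f, a semaphorin that binds Nrp2 (r = 0.945). Flt1 was most like Inhbb, an activin subunit (r = 0.974), and both were highest in SFSC1. For Flt4 the genes were Fabp3 (r = 0.903), B4galt1 (r = 0.899) and Ckmt2 (r = 0.894), of which Fabp3 and Ckmt2 are known from muscle. In the same order, the Spearman rank correlations were 0.683, 0.933 and 0.753. Fabp3 was 143 FPKM in SFSC3 and 132 FPKM in B6SC1, against at most 12.1 FPKM in the other tumors.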

How the data were processed

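Libraries of 9 orthotopic tumors, 3 in each group, were analysed. Paired-end reads had been mapped by HISAT2 to mouse build mm10, and the authors deposited FPKM values from Cuffnorm, in which fragment numbers are scaled by the length of the transcript and the size of the library. The annotation and the scaling option are not given in the sources used here. The labels name the organism as human, but the gene symbols, the cells and the build are of the mouse. The study tested counts with Cuffdiff, and because FPKM values are not counts, limma was used instead.

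Genes reaching 1 FPKM in 3 or more tumors entered 1 limma model of the 3 groups on log2(FPKM + 1), 10263 of 17369 in all (limma 3.58.1, R 4.3.3, lmFit, eBayes with a mean-variance trend). Benjamini-Hochberg adjustment covered every gene tested. Single values were compared by exact two-sided permutation tests (SciPy 1.17.1). The fits were tested on simulated data, and the outcome is not given here. Steps between low FPKM values put the depth of each tumor at 0.962 to 1.35 times that of SFOG1. This is a rough estimate, because only 63 to 170 of 1083 to 1285 low genes lay on the commonest step, and absolute depth is unknown.

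Members, lists and tests were chosen with earlier results of these data known, and the lists come from general knowledge. Also named are genes among the 3 most like each member, of those with a mean of at least 5 FPKM. Alternatives were other pseudocounts, filters and scalings, only the groups compared, a replicate block, no trend, and each tumor left out. Leaving out both muscle-rich tumors, or the muscle genes, was added after the data were seen. Whether the tumors of a group came from separate cell cultures is not stated. Mouse coordinates and sequences were not used here.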

Additional observations from a re-analysis of the deposited data

How the results depend on the processing

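The Vegfc calls held under every alternative run. The number of VEGF genes called ran from 1 to 2 in B6SC against SFOG when tumors were left out, with Flt1 the added gene without SFSC1. Blocking on the replicate number left 444, 388 and 0 genes passing in SFSC against SFOG, B6SC against SFOG and B6SC against SFSC, where 850, 693 and 3 passed without the block. Same-numbered tumors are different animals, the mean correlations of their deviations were -0.098, 0.16 and -0.012, and 0, 3 and 2 of 6 tumors correlated best with their own number. In SFSC against SFOG, 449 genes passed with only the groups compared and 472 without the muscle-rich tumors. In B6SC against SFSC the count was 0 with only the groups compared and 1 with no filter. Leaving out each tumor gave 225 to 808, 199 to 798 and 0 to 6 genes, with the lowest of the first without SFOG3 and of the second without B6SC3.

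All reversed signs were of values not past the threshold. Quantile normalization gave -0.053 for Flt4 in SFSC against SFOG and 0.029 for Kdr in B6SC against SFSC. Without the muscle-rich tumors, B6SC against SFSC gave -0.084 for Flt4 and -0.090 for Nrp2. With each tumor left out, log2 fold changes were -0.049 to 0.19 for Vegfa in B6SC against SFOG and -0.013 to 0.60 for Flt1 in SFSC against SFOG. In B6SC against SFSC they were -0.12 to 0.078 for Vegfb, -0.39 to 0.29 for Pgf, -0.094 to 0.055 for Kdr, -0.14 to 0.14 for Flt4 and -0.084 to 0.15 for Nrp2. Relative to the endothelial markers, they were -0.31 to 0.36 for Flt1 and -0.34 to 0.077 for Kdr in SFSC against SFOG, -0.19 to 0.12 for Kdr and -0.18 to 0.0087 for Flt4 in B6SC against SFOG, and -0.085 to 0.28 for Kdr, -0.011 to 0.17 for Flt4 and -0.18 to 0.38 for Nrp2 in B6SC against SFSC. With Pecam1 and Cdh5 alone as markers, the last Kdr value was -0.031. The causes were not tested.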
